A study of Homo sapiens with 16 samples.

Results

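The windows of 9 genes that mark the ovarian and Müllerian epithelium were followed through 8 deposited peak lists of acetylated histone H3 from epithelial ovarian cancer (EOC) cell lines. The genes are PAX8, WT1, SOX17, EMX2, MUC16, MSLN, FOLR1, KRT7 and CDH6. Each window was set in hg19 to the nearest 10 kb around the gene and extended by 30 kb per side, and a peak was a member where it overlapped an extended window. Of the 179689 peaks on the standard chromosomes, 98 were members. The gene windows without the extension measured between 10 kb and 150 kb, and the extended windows between 70 kb and 210 kb. What was measured is the length of each window covered by peaks, in kb.

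The study profiled H3K27ac, a mark of active enhancers and promoters, and H3K9ac, a mark found mostly near active gene starts, by ChIP-seq with 1 library per condition. H3K27ac was listed for A2780 and CAOV4 cells without treatment and for their derivatives A2780cis and CAOV4cis, labelled as cisplatin treated. It was also listed for A2780 cells after 1 week of *MBD3* knockdown with the shRNA shMBD3.26 or shMBD3.232, and H3K9ac was listed for A2780 and A2780cis. All libraries carried a *D. melanogaster* mononucleosome spike-in of 5%. The authors describe A2780 as derived from an endometrioid adenocarcinoma and CAOV4 as a high-grade serous line. Both resistant lines were kept in medium with cPt, and CAOV4cis came from CAOV4 by prolonged treatment with rising cPt. The shRNA cells were Tet-on A2780 cells transduced with an inducible vector, selected and sorted for GFP, whereas A2780 itself was not transduced. All cells were washed in buffer with the deacetylase inhibitor Trichostatin A before chromatin was made. Without a list from control hairpin cells, the knockdown cannot be told apart from transduction, selection and sorting. Input libraries were not analysed here.

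The lists held 15365 to 28662 peaks and covered 54.5 Mb to 98.9 Mb in total. The H3K27ac list of A2780, to which those of A2780cis, CAOV4 and the shRNAs are compared, was the largest in both. They give the start and end of each peak on a grid of 200 bp and no signal, so the number of reads under a peak cannot be read from them and depth is unknown. With 1 library per condition, no difference below has a replicate error or a test, and the lists do not tell weak acetylation below the peak threshold from none. No list had a peak on chromosomes 20, 21 and 22, and on chromosome 1 the last peak of any list ended at 197.2 Mb, well before the end of that chromosome in hg19. The lists therefore do not span the whole hg19 genome, and the reason is not given in the sources used here. All 9 windows lie within the stretch of their chromosome that the lists reach. To read the numbers, the chromosomes were also cut, up to the last listed peak, into 25791 tiles of 100 kb. A window or tile was called higher or lower where one list covered at least 2 times the length of the other and at least 2 kb more. Tiles are not centred on genes, and the extended windows are narrower or wider than a tile, so the share of tiles called is a background and not a control.

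The Müllerian ducts give rise to the fallopian tube, the uterus and the upper vagina, and carcinomas of the ovary often keep the genes of this lineage. PAX8, SOX17, EMX2 and WT1 are transcription factors that shape the urogenital tract, and pathologists use PAX8 and WT1 to assign a tumor to this origin. MUC16, MSLN and FOLR1 are proteins of the cell surface that are measured or targeted in ovarian cancer, and KRT7 and CDH6 build the keratin network and the cell contacts of such epithelia. Active genes of a lineage are usually acetylated at the promoter and at nearby enhancers, and wide acetylated domains are often found at genes that mark the identity of a cell.

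The starts of PAX8, WT1, EMX2 and MUC16 are shown as sequence because only these genes had a promoter sequence in the set used here. In the 10 kb at the 5′ edge of these gene windows, CAOV4 and CAOV4cis had a peak at WT1, and no list had one at PAX8, EMX2 or MUC16. For MUC16, these 10 kb need not hold the start, because the RefSeq gene of 216.9 kb is longer than the gene window of 150 kb. Within 100 kb beyond that edge, H3K27ac covered 25.6 kb in CAOV4 and 13.4 kb in CAOV4cis. The RefSeq (GRCh38.p14) promoter sequences used here matched 4 of the 9 genes, and the 250 bases before the start are printed, or before the first-listed start where RefSeq gives several. Capitals mark the GC box (GGGCGG), the CCAAT box (CCAAT) and the TATA box (TATAAA), searched on both strands.
PAX8, chr2:113278922-113279171, minus strand: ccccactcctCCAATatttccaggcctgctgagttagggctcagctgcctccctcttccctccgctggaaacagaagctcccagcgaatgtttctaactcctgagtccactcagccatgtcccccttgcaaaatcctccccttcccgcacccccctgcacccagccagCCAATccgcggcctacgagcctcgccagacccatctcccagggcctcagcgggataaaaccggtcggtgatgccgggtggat
WT1, chr11:32435540-32435789, minus strand: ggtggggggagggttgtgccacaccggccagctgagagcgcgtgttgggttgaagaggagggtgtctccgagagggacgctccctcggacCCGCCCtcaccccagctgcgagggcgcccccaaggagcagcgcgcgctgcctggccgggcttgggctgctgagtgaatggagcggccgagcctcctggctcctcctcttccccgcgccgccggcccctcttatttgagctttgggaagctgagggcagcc
EMX2, chr10:117542496-117542745, plus strand: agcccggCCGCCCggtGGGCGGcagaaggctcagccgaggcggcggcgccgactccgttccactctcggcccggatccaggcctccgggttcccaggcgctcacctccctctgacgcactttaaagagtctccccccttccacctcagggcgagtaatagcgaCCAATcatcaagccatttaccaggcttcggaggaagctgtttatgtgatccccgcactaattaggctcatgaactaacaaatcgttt
MUC16, chr19:9065752-9066001, minus strand: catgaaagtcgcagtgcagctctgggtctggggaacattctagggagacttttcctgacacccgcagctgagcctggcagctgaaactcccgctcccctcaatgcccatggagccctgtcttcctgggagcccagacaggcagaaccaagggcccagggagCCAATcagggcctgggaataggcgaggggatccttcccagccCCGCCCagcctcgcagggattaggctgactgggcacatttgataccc
These positions are those of GRCh38.p14 and cannot be set beside the hg19 positions of the peaks. The printed stretch before WT1 was the richest in G and C of the 4, at 70.4%, and held 1 GC box. The other WT1 starts in RefSeq, not printed, had 46.8% to 64.0% and no GC box. That of EMX2 had the most CG pairs, with 20, and held 2 GC boxes and 1 CCAAT box. PAX8 had 11 CG pairs and 2 CCAAT boxes, and MUC16 had 6 CG pairs, 1 GC box and 1 CCAAT box. None of these 4 stretches held the TATA box. Of 35116 RefSeq promoters, 42.6% held a GC box in the same stretch, 32.0% a CCAAT box and 10.7% a TATA box, and the median was 58.0% for G and C and 11.0 for CG pairs. In CG pairs of the printed stretches, PAX8 was at the median, MUC16 below it, and WT1 and EMX2 above it. The other WT1 starts had 3 to 18 CG pairs, so the place of WT1 depends on the start used. The other MUC16 start had 6 CG pairs and none of the boxes. A match is a description of the letters and not evidence of a bound factor.

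**Figure D1:**
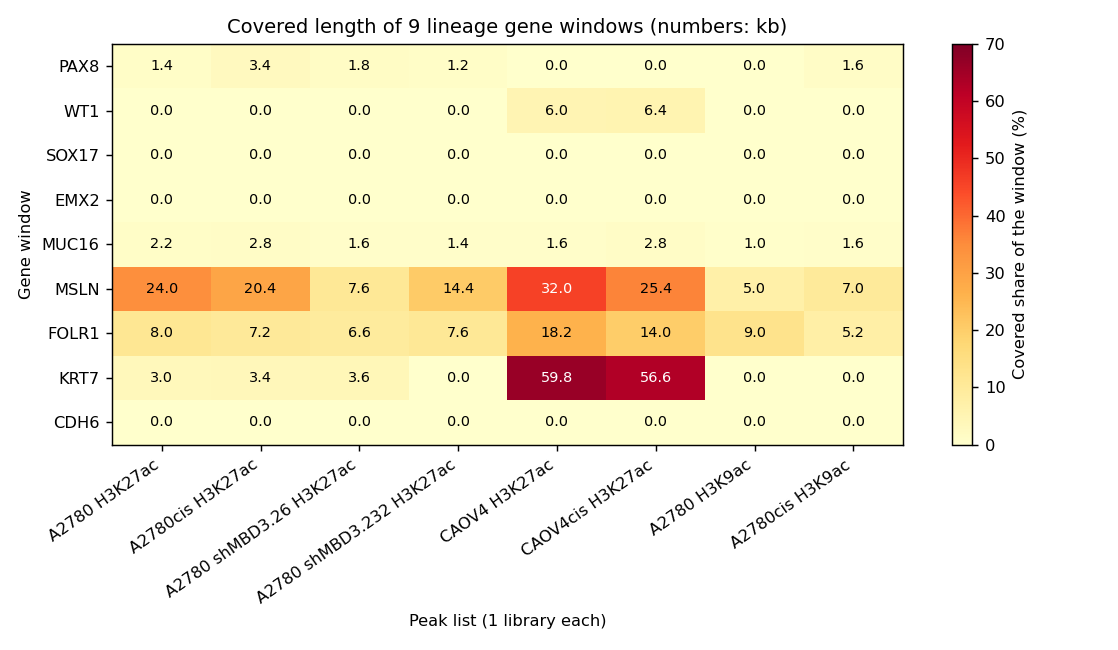
Covered length of each extended gene window (rows) in each of the 8 peak lists (columns, 1 library each). The number in a cell is the covered length in kb and the color is the covered share of the window in percent. KRT7 reached 59.8 kb and 56.6 kb in the CAOV4 lists, and SOX17, EMX2 and CDH6 were at 0 in every list.

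WT1, a zinc finger factor of the developing gonad and kidney that is kept in serous carcinomas, had peaks in the CAOV4 and CAOV4cis lists and in none of the 6 lists from A2780 cells. H3K27ac covered 6.0 kb of its window in CAOV4 and 6.4 kb in CAOV4cis. CAOV4 and CAOV4cis shared 4.8 kb of this length, or 80.0% of the CAOV4 length and 75% of the CAOV4cis length. The wider peak lay inside the gene window, on chromosome 11 from 32441201 to 32445200 in CAOV4 and from 32440201 to 32444400 in CAOV4cis. The CAOV4 peak measured 4.0 kb, and 74.8% of the peaks of that list were not wider. A second peak crossed the 5′ edge of the gene window, from 32459601 to 32461200 in CAOV4 and from 32459201 to 32461400 in CAOV4cis. It covered 0.4 kb and 0.8 kb of the gene window. This edge is set to the nearest 10 kb, so the peak need not lie at the start of WT1. In the lists from A2780 cells, the nearest peak was 144.2 kb to 144.8 kb away from the gene window. Of all tiles, 4.01% had a peak in both CAOV4 lists and none in the 6 lists from A2780 cells.

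PAX8, the paired box factor that marks Müllerian epithelium and most ovarian carcinomas, showed little acetylation in any list. H3K27ac covered 1.4 kb of its window in A2780, 3.4 kb in A2780cis, 1.8 kb with shMBD3.26 and 1.2 kb with shMBD3.232. No peak was listed in CAOV4 or CAOV4cis, where the nearest peak was 52.4 kb and 152.8 kb away. Nearly all of the length in the A2780 lists came from 1 region past the 3′ edge of the gene window, on chromosome 2 from 113956001 to 113959000. It was listed in the 4 H3K27ac lists from A2780 cells and, with 1.6 kb, in the H3K9ac list of A2780cis. Inside the gene window, the 1 peak of all lists measured 0.4 kb, in A2780cis from 114006601 to 114007000, which is 2 steps of the grid. The 10 kb at the 5′ edge of the gene window held no peak in any of the 8 lists. PSD4, which encodes a guanine nucleotide exchange factor, is the neighboring coding gene on the side of the shared region, so this length cannot be assigned to PAX8 from the lists.

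SOX17, an HMG box factor that acts with PAX8 in the Müllerian lineage, and EMX2, a homeobox factor needed for the urogenital tract, had no peak in their windows, on chromosomes 8 and 10, in any of the 8 lists. From the SOX17 gene window, the nearest peak was between 231.4 kb and 318.6 kb away, with a median of 291.0 kb over the lists. For EMX2, it was between 97.2 kb in A2780cis and 533.2 kb in CAOV4, and the peak in A2780cis measured no more than 0.2 kb within 100 kb of the gene window. CDH6 on chromosome 5, a cadherin of renal and ovarian epithelium, likewise had no listed peak, and its nearest peak lay 83.2 kb to 200.8 kb away. Of all tiles, 46.0% had no peak in any of the 8 lists, against 3 of the 9 windows. Of the 9 windows, 4 had no H3K27ac peak in A2780, A2780cis, shMBD3.26, CAOV4 and CAOV4cis, where 63.8%, 65.0%, 64.3%, 65.9% and 65.3% of the tiles had none. The number was 5 of 9 with shMBD3.232, where 69.0% of the tiles had none. For H3K9ac it was 6 of 9 in A2780 and 5 of 9 in A2780cis, where 68.4% and 72.3% of the tiles had none. Windows of known genes were thus without a peak no more often than tiles, which include gene-poor DNA.

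**Figure D2:**
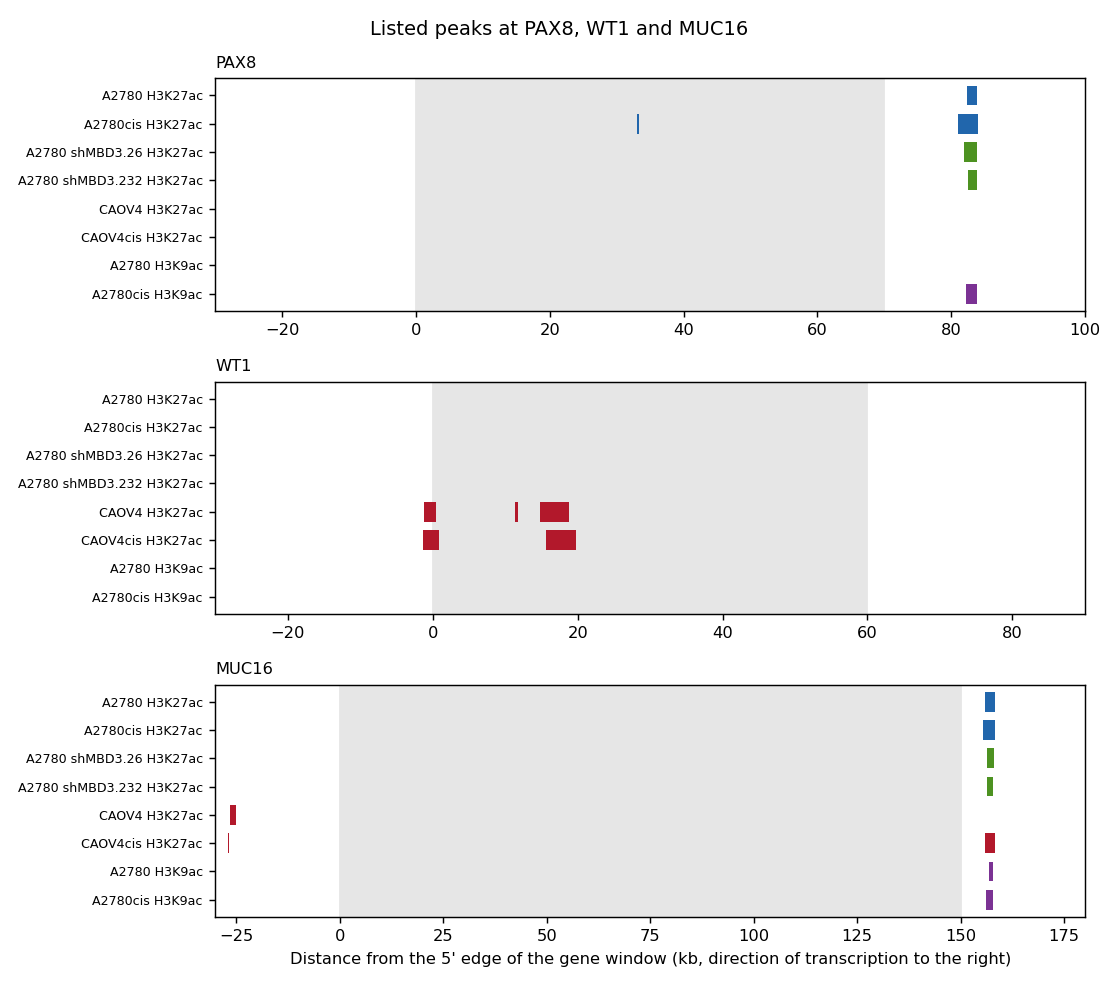
Positions of the listed peaks in the extended windows of PAX8, WT1 and MUC16, 1 row per list. The x axis is the distance in kb from the 5′ edge of the gene window (gray), with transcription to the right, and bars are peaks. WT1 has bars in the CAOV4 and CAOV4cis rows and in no other row, and the bars at PAX8 lie past its 3′ edge except for 1 of 0.4 kb.

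**Figure D3:**
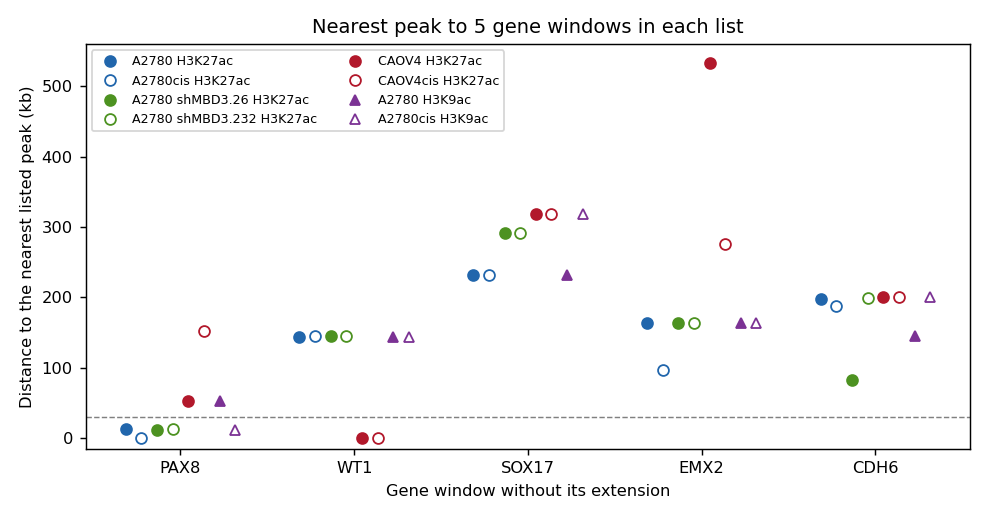
Distance in kb from the gene window of PAX8, WT1, SOX17, EMX2 and CDH6 to the nearest peak in each list, with circles for H3K27ac and triangles for H3K9ac. The dashed line is the extension of 30 kb. All points of SOX17, EMX2 and CDH6 lie above it, between 83.2 kb and 533.2 kb, and the CAOV4 points of WT1 lie at 0.

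MSLN encodes mesothelin, a membrane-anchored protein that binds the mucin MUC16, and its window held 45 of the 98 member peaks. H3K27ac covered 24.0 kb in A2780, 20.4 kb in A2780cis, 7.6 kb with shMBD3.26, 14.4 kb with shMBD3.232, 32.0 kb in CAOV4 and 25.4 kb in CAOV4cis. H3K9ac covered 5.0 kb in A2780 and 7.0 kb in A2780cis. The window is gene-dense, with CIAO3 and HAGHL before MSLN and RPUSD1 and CHTF18 after it. Of its 9 merged regions, 3 were found in all 8 lists, each outside the gene window. However, 1 of them reached past the edge of the extended window. Its peaks in shMBD3.26, in CAOV4 and in the H3K9ac list of A2780cis lay wholly beyond that edge. Within the gene window, the lists were further apart. H3K27ac covered 7.2 kb of these 10 kb in A2780, 7.2 kb in CAOV4 and 6.0 kb in CAOV4cis, but 1.6 kb with each of shMBD3.26 and shMBD3.232 and nothing in A2780cis. The peak across the 5′ edge of the gene window ran from 809401 to 814800 on chromosome 16 in A2780, from 808201 to 817200 in CAOV4 and from 809601 to 815000 in CAOV4cis. It was not listed in the other H3K27ac lists, and no H3K9ac peak lay in the gene window in either line. A2780 H3K27ac thus extended into the gene itself, whereas in A2780cis the nearest peak was 14.6 kb away.

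FOLR1 encodes folate receptor alpha, which carries folate into epithelial cells. H3K27ac covered 18.2 kb of its window in CAOV4 and 14.0 kb in CAOV4cis, against 8.0 kb in A2780, 7.2 kb in A2780cis, 6.6 kb with shMBD3.26 and 7.6 kb with shMBD3.232. H3K9ac covered 9.0 kb in A2780 and 5.2 kb in A2780cis. A region more than 30 kb past the start of the gene window was present in all 8 lists and made up the whole H3K27ac length in the 4 lists from A2780 cells. FOLR2 and INPPL1 are the next coding genes on this side, so the region cannot be assigned to FOLR1. The remaining length of the CAOV4 lists lay before and in the gene. A peak of 6.0 kb ran from 71891401 to 71897400 on chromosome 11 in CAOV4 and from 71891201 to 71897200 in CAOV4cis. A further peak of 4.2 kb in the gene window, from 71900401 to 71904600, was listed in CAOV4 and not in CAOV4cis. At both positions A2780 had an H3K9ac peak and no H3K27ac peak, with 1.0 kb from 71892001 to 71893000 and 2.6 kb from 71900801 to 71903400. A2780cis had neither mark there, and its nearest H3K9ac peak was 19.2 kb from the gene window.

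MUC16 encodes the mucin from which the serum marker CA125 is shed. Each of the 8 lists had a peak in its window, but the covered length was 1.0 kb to 2.8 kb, at most 1.33% of the window, and no peak lay in the gene window of 150 kb. Of these lists, 7 shared a region past the 3′ edge of the gene window, on chromosome 19 from 8941601 to 8944600, where ZNF558 and MBD3L1 are the next coding genes. CAOV4 lacked this region and had a peak of 1.6 kb beyond the 5′ edge of the gene window instead, from 9125001 to 9126600. The RefSeq gene measures 216.9 kb and is longer than the gene window, so the window cannot hold the whole gene, and a peak beyond its 5′ edge may lie in the gene or before it. With an extension of 100 kb per side, H3K27ac covered 25.6 kb in CAOV4 and 16.0 kb in CAOV4cis, against 2.6 kb in A2780, 2.8 kb in A2780cis, 1.6 kb with shMBD3.26 and 1.4 kb with shMBD3.232. Of this length, 25.6 kb in CAOV4 and 13.4 kb in CAOV4cis lay beyond the 5′ edge of the gene window, where A2780 had 0.4 kb and A2780cis none. The widest CAOV4 peak there measured 7.6 kb and ran from 9166601 to 9174200. It was looked up after the totals had been seen. The CAOV4cis peaks that overlapped it measured 2.6 kb and 1.6 kb. The widest CAOV4cis peak beyond the 5′ edge measured 4.4 kb, ran from 9160401 to 9164800 and did not overlap it.

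KRT7, a type II keratin of simple and ductal epithelia, had the widest acetylation of the 9 genes. H3K27ac covered 59.8 kb of its 90 kb window in CAOV4 and 56.6 kb in CAOV4cis, or 66.4% and 62.9%. The lists from A2780 cells covered 3.0 kb in A2780, 3.4 kb in A2780cis and 3.6 kb with shMBD3.26, no peak was listed with shMBD3.232, and neither H3K9ac list had one. CAOV4 and CAOV4cis thus lay above all 6 lists from A2780 cells. In CAOV4, 1 peak of 32.8 kb ran from 52622001 to 52654800 on chromosome 12, covered 93.3% of the gene window and reached past its end. It ranked 58 by width among the 23485 peaks of that list. In CAOV4cis, the corresponding peak measured 28.8 kb, ran from 52624201 to 52653000, covered 86.0% of the gene window and ranked 76 among 25061. No other of the 9 windows held a single peak of this width. CAOV4 and CAOV4cis shared 49.8 kb of the window, or 83.3% of the CAOV4 length and 88.0% of the CAOV4cis length. After stitching across gaps of up to 12.5 kb, the KRT7 cluster spanned 148.0 kb with 115.2 kb covered in CAOV4 and ranked 25 of 12992 by covered length. In CAOV4cis, it spanned 167.0 kb with 110.6 kb covered and ranked 36 of 13270. The clusters reach beyond the window on the side of KRT80, another keratin gene. Of all tiles, 0.663% were covered to at least 50% in CAOV4 and 0.756% in CAOV4cis. The H3K27ac peaks of A2780, A2780cis and shMBD3.26 lay outside the gene window, 51.8 kb to 56.4 kb from its 5′ edge, at a region that the CAOV4 lists also held and that lies toward KRT86 and KRT81.

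**Figure D4:**
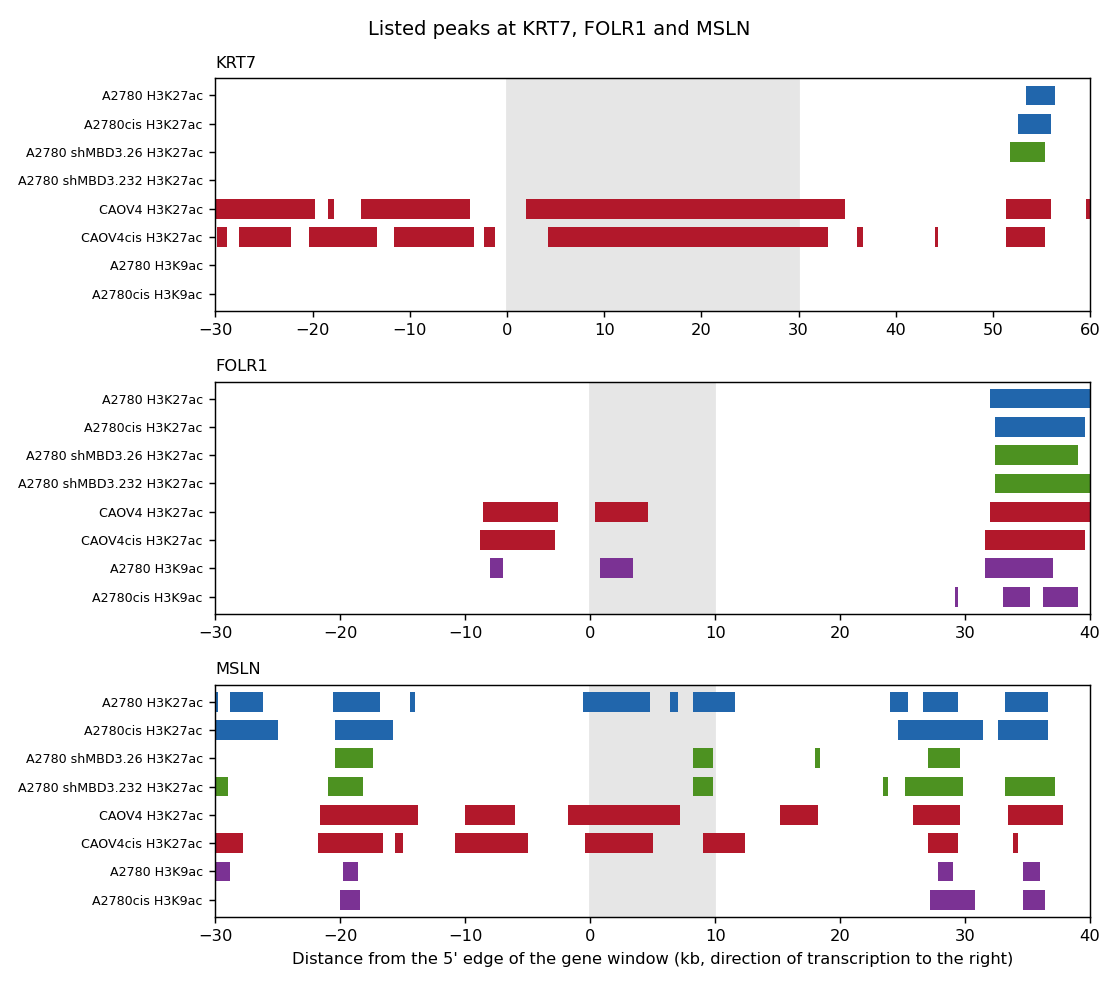
Positions of the listed peaks in the extended windows of KRT7, FOLR1 and MSLN, 1 row per list. The x axis is the distance in kb from the 5′ edge of the gene window (gray), with transcription to the right, and bars are peaks clipped to the window. The CAOV4 rows fill most of the KRT7 gene window, and at FOLR1 the rows of CAOV4, CAOV4cis and A2780 H3K9ac have bars before the gene.

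Over all 9 windows, H3K27ac covered 117.6 kb in CAOV4 and 105.2 kb in CAOV4cis, out of 1030 kb. In the A2780 lists it covered 38.6 kb in A2780, 37.2 kb in A2780cis, 21.2 kb with shMBD3.26 and 24.6 kb with shMBD3.232. KRT7 alone made up 50.9% of the CAOV4 length, and MSLN made up 62.2% of the A2780 length. The windows were covered to 11.4% in CAOV4 and to 3.75% in A2780, while the whole lists covered 3.04% and 3.84% of the tiled chromosomes. The part inside the gene windows was 44.2 kb in CAOV4 and 36.8 kb in CAOV4cis, against 7.2 kb in A2780, all of it at MSLN, 0.4 kb in A2780cis and 1.6 kb with each shRNA. Only the H3K27ac peaks of WT1, MSLN, FOLR1 and KRT7 reached the first 10 kb of a gene window in CAOV4, and only those of MSLN in A2780. In A2780, an H3K9ac peak covered 2.6 kb of these 10 kb at FOLR1. For MSLN and FOLR1, the first 10 kb are the whole gene window, so a peak there need not lie at the start of the gene. As a check of the label, CAOV4 and CAOV4cis both had peaks in the gene windows of WT1, MSLN and KRT7 and none in those of PAX8, SOX17, EMX2, MUC16 and CDH6. The MUC16 gene window does not hold the whole gene. Within 100 kb beyond its 5′ edge, H3K27ac covered 25.6 kb in CAOV4 and 13.4 kb in CAOV4cis, against 0.4 kb in A2780 and none in A2780cis. The 6 lists from A2780 cells had no peak in the gene windows of WT1, SOX17, EMX2, MUC16, KRT7 and CDH6, so WT1 and KRT7 were the gene windows with peaks in both CAOV4 lists and in no list from A2780 cells. Peaks are not expression, so this does not say which of the markers the cells make.

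The lines of different origin were compared first. CAOV4 was called higher than A2780 in 3 of the 6 windows that had a peak in either list, WT1, FOLR1 and KRT7, and lower in none. Of the 11614 tiles with a peak in at least 1 of these lists, 20.6% were called higher in CAOV4 and 32.2% lower. KRT7 was covered 19.9 times as much in CAOV4 and FOLR1 2.28 times, and WT1 was listed at 0 in A2780. MSLN was covered 1.33 times as much and was not called. Its difference was 0.0 kb without the extension, -3.0 kb with 100 kb per side and -8.0 kb with whole peak lengths, and it stayed positive under the other alternatives. FOLR1 was not called with windows extended by 100 kb or at 3 times. Merging the peaks of CAOV4 and A2780 gave 25 regions in the windows, of which 52.0% had a peak in CAOV4 only and 20.0% in A2780 only, against 31.2% and 44.3% of all 40259 merged regions.

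**Figure D5:**
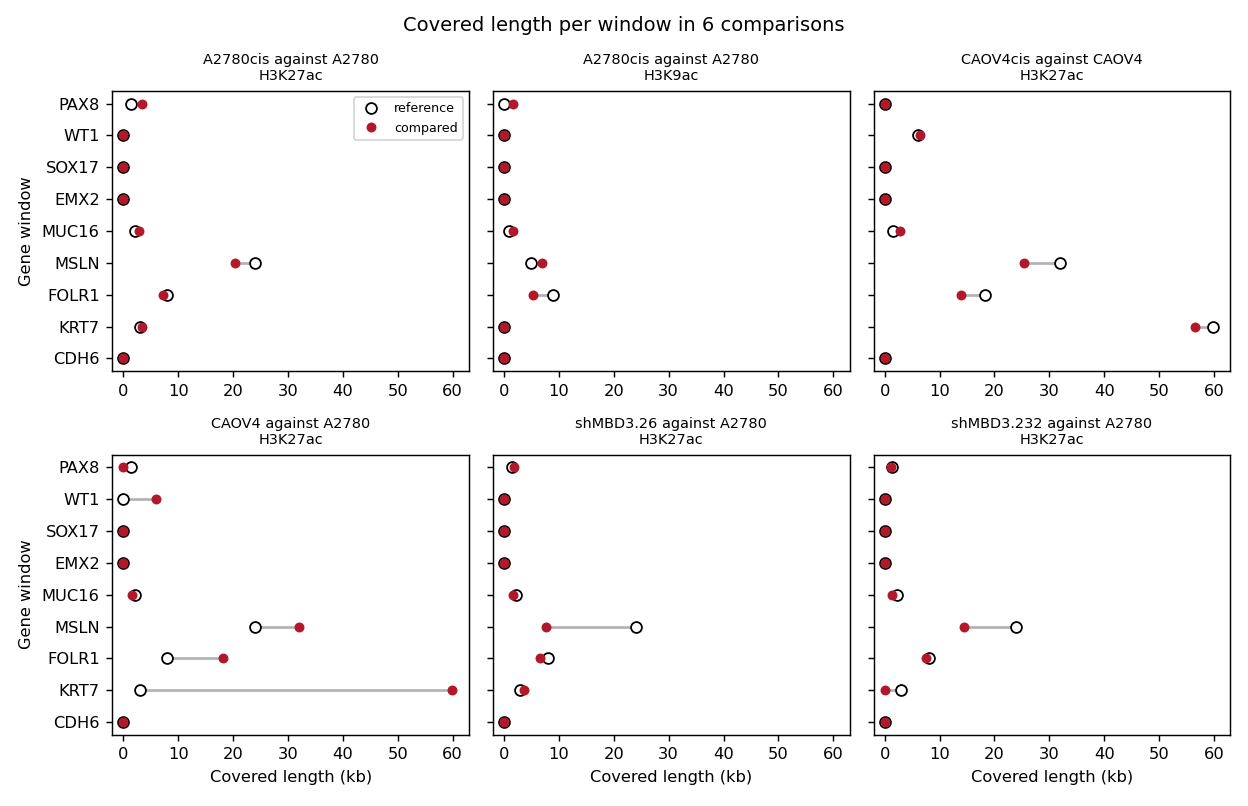
Covered length in kb of each of the 9 windows in the 6 comparisons, with open circles for the reference line and filled circles for the compared line. Each point is 1 library. The largest gap is that of KRT7 between A2780 at 3.0 kb and CAOV4 at 59.8 kb, and between a cisplatin-resistant line and its parental line the largest gap is 6.6 kb, at MSLN in CAOV4cis and CAOV4.

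Sensitive and resistant cells were then compared within each line. For H3K27ac in A2780cis against A2780, 1 of 5 windows with a peak was called higher, PAX8 at 3.4 kb against 1.4 kb, and none was called lower. Of 10510 tiles, 11.2% were called higher and 14.0% lower. The PAX8 difference came from the region past the 3′ edge of the gene window, which measured 3.0 kb in A2780cis and 1.4 kb in A2780, and from the peak of 0.4 kb in the gene window. It lay at the limit of 2 kb and was not called under 4 of 8 alternative settings. KRT7, MUC16 and FOLR1 differed by at most 0.8 kb. For MSLN, A2780cis covered 3.6 kb less, and the lists shared 13.4 kb, or 55.8% of the A2780 length and 65.7% of the A2780cis length. The difference within its gene window, 7.2 kb in A2780 and none in A2780cis, was partly offset by wider peaks in the flanks. Merging gave 13 regions, of which 30.8% had a peak in A2780 only and 7.69% in A2780cis only, against 38.1% and 17.9% of all merged regions of this pair.

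In CAOV4cis against CAOV4, none of the 5 windows with a peak was called in either direction, while 13.9% of 10374 tiles were called higher and 11.1% lower. The covered length was 3.2 kb lower at KRT7, 6.6 kb lower at MSLN and 4.2 kb lower at FOLR1 in CAOV4cis, and 0.4 kb higher at WT1 and 1.2 kb higher at MUC16. The difference at FOLR1 was that of the peak in the gene window, which CAOV4cis lacked. At MSLN, the lists shared 17.8 kb, or 55.6% of the CAOV4 length and 70.1% of the CAOV4cis length, lower shares than at KRT7. Of 24 merged regions, 20.8% had a peak in CAOV4 only and 25% in CAOV4cis only, against 29.1% and 33.8% of all merged regions.

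H3K9ac was listed at 3 of the 9 windows in A2780 and at 4 in A2780cis, and covered 15.0 kb and 15.4 kb in all. None of the 4 windows with a peak was called higher or lower in A2780cis, while 14.1% of 9247 tiles were called higher and 16.3% lower. Under 5 of 8 alternative settings 1 window was called: FOLR1 lower without the extension and at 1.5 times, KRT7 lower with 100 kb per side, MSLN higher with peaks over 2 kb, and PAX8 higher after scaling. FOLR1 was the largest difference, at 5.2 kb in A2780cis against 9.0 kb in A2780. PAX8 had 1.6 kb in A2780cis and was listed at 0 in A2780, and MSLN had 7.0 kb against 5.0 kb. Of 10 merged regions, 30% had a peak in A2780 only and 20.0% in A2780cis only, against 46.0% and 21.7% of all merged regions. H3K9ac peaks covered 25.9% of the H3K27ac length of the windows in A2780 and 40.9% in A2780cis. These shares were 0% in both without the extension, and 14.9% and 23.4% with peaks over 2 kb. Over the whole lists, with all peaks, the shares were 44.0% and 50.6%, and both window values were lower than the value of their whole list. Conversely, 66.7% of the H3K9ac length of the windows lay under H3K27ac in A2780 and 98.7% in A2780cis, against 78.7% and 87.1% over the whole lists. The H3K9ac without H3K27ac in A2780 lay at FOLR1 and MSLN, with 4.0 kb of 9.0 kb at FOLR1.

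With shMBD3.26, 1 of 5 windows with a peak was called lower than in A2780, MSLN at 7.6 kb against 24.0 kb, and none was called higher. Of 10161 tiles, 10.3% were called lower and 2.7% higher. The MSLN call was not made with windows extended by 100 kb. Of 15 merged regions, 40.0% had a peak in A2780 only and 6.67% with shMBD3.26 only, against 34.0% and 18.0% of all merged regions. With shMBD3.232, 1 of 5 windows with a peak was called lower, KRT7, where the peak of 3.0 kb in A2780 had no counterpart, and no window was called higher. Of 9569 tiles, 13.9% were called lower and 1.9% higher. Of 14 merged regions, 35.7% had a peak in A2780 only and 7.14% with shMBD3.232 only, against 40.1% and 10.9% of all merged regions. The KRT7 peak lay outside the gene window, so KRT7 was not called without the extension, where MSLN was called lower instead, at 1.6 kb against 7.2 kb. MSLN, covered by 14.4 kb with shMBD3.232, missed the limit of 2 times there, but was called lower with this hairpin without the extension, with whole peak lengths and at 1.5 times. Without the extension, both hairpins gave the same MSLN call, and A2780cis was called lower than A2780 there too. No share of tiles as narrow as this gene window of 10 kb was counted, so these calls have no background. KRT7 was covered by 3.6 kb with shMBD3.26 and was not called. Both hairpins had the same peak in the MSLN gene window, from 818201 to 819800, and both lacked the peak that A2780 had across its 5′ edge. A2780cis, which carries no hairpin, lacked it too and had no H3K27ac peak in that gene window. The H3K27ac list of A2780 held 28662 peaks, against 23960 with shMBD3.26, 19475 with shMBD3.232 and 20899 in A2780cis. Whether the missing peak goes with these smaller lists was not tested. At FOLR1, PAX8 and MUC16, the covered length with either shRNA was within 1.4 kb of that in A2780. WT1, SOX17, EMX2 and CDH6 had no peak with either shRNA, as in A2780 and A2780cis. The comparisons with A2780cis, CAOV4 and the shRNAs share the A2780 list and are not independent of each other.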

How the data were processed

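Alignment was done by the authors in Galaxy with Bowtie2, followed by quantile normalization in a script of theirs and peak calling with MACS2. The submitters' processing notes name hg19 (GRCh37) as the build, and versions are not given in the sources used here. The deposited files hold 1 peak list per sample, not pooled, with start and end in bp, and a score column filled with 0 throughout, which carries no measurement. A listed peak is present or absent, so widths depend on the threshold of the authors, which is not known. The 6 peaks off the standard chromosomes were left out.

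Peaks were clipped to the windows, and lengths were summed and set side by side without a test. Peaks sharing at least 1 bp were merged into regions. The named genes are all 9 members. These members, the windows and the settings were chosen with earlier results of these data known. The strand of PAX8, WT1, EMX2 and MUC16 comes from RefSeq and that of the other genes from general knowledge. RefSeq (GRCh38.p14) served for names, neighbors, gene lengths and promoter sequences. Further lineage genes need an hg19 annotation and were not analysed here. The alternatives were no extension and one of 100 kb, peaks over 2 kb, the 15365 widest peaks of each list, whole peak lengths, scaling to the total covered length, 1.5 and 3 times for a call, and tiles of 50 kb and 200 kb. The functions were tested on simulated lists. Python 3.11.15, numpy 2.4.6, pandas 2.3.3 and matplotlib 3.10.9 were used.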

Additional observations from a re-analysis of the deposited data

Results flagged for a closer look

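At KRT7, the H3K27ac length of the resistant line differed from its parental line in opposite directions in the cell line pairs, by 0.4 kb in A2780cis minus A2780 and by -3.2 kb in CAOV4cis minus CAOV4. Each pair has 1 library per line, so the difference between the pairs was not tested. The first value is 2 steps of the grid of 200 bp, and it comes from the region past the gene window and not from inside it.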

How the results depend on the processing

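No difference of a window called under the settings used above changed direction under the alternatives. This did not hold for windows called only under an alternative. MUC16 in CAOV4 against A2780 was called higher with 100 kb per side and lower with peaks over 2 kb. MUC16 in CAOV4cis, called higher with peaks over 2 kb, was covered less than in CAOV4 with 100 kb per side. MSLN in A2780cis, called lower for H3K27ac without the extension, was covered more than in A2780 with 100 kb per side. WT1 and KRT7 were called higher in CAOV4 than in A2780 under all 8 alternatives and FOLR1 under 6 of 8, not with 100 kb per side or at 3 times. Without the extension, A2780cis had 0 windows called higher and 1 lower (MSLN) for H3K27ac, 1 was lower for H3K9ac and 1 in CAOV4cis (both FOLR1), MSLN took the place of KRT7 as the window called lower with shMBD3.232, and H3K9ac covered 0% of the H3K27ac length in A2780 and in A2780cis. With 100 kb per side, 1 window was lower for H3K9ac in A2780cis (KRT7), 1 in CAOV4cis (PAX8) and 0 with shMBD3.26, and MUC16 was called higher in CAOV4 than in A2780. With peaks over 2 kb, 1 window was higher for H3K9ac in A2780cis (MSLN), 1 was higher in CAOV4cis and 1 lower in CAOV4 than in A2780 (both MUC16), 2 were lower with each shRNA, and the H3K9ac share was 14.9% in A2780 and 23.4% in A2780cis. With whole peak lengths, 2 windows were lower with shMBD3.232 (MSLN and KRT7). Scaled to the total covered length, 0 windows were higher for H3K27ac in A2780cis and 1 for H3K9ac (PAX8). At 1.5 times, 1 window was lower for H3K9ac in A2780cis (FOLR1) and 2 with shMBD3.232 (MSLN and KRT7), and at 3 times, 0 were higher for H3K27ac in A2780cis. These shifts follow from the construction of each alternative, as other peaks, lengths or thresholds are counted. The shares of tiles called stayed within 1.5 times of those given with tiles of 50 kb and 200 kb. Tiles as narrow as the gene windows of 10 kb were not counted, so the calls made there without the extension have no background. No paired analysis was possible because each condition has 1 library. The unknown depth limits every statement that a peak is missing.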
